A study of Mus musculus with 2 samples.

Results

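Complement C3, its partners in the classical and alternative routes, their regulators and a receptor were followed by RNA sequencing. The cultures are those that the study names mouse cavernous endothelial cells (MCECs). The 9 genes, C1ra, C2, C4b, C3, Cfb, Serping1, Cd55, C1qtnf6 and C3ar1, were chosen by symbol and by role in complement, with their levels and differences in these same libraries already known, so those values are given as a description. They are 9 of 23183 gene symbols in the files, and all 9 reached 1 FPKM (fragments per kilobase of transcript, scaled to library depth) in both libraries. The study grew primary MCECs from the penis of male C57BL/6J mice aged 8 weeks, used them at passages 2 to 4, and kept both groups in high glucose (HG, 30 mM) after serum starvation. HG+HBS received HBS, the vehicle. HG+PC-NVs received PC-NVs at 1 µg/mL, which are nanovesicles made by pushing cultured mouse cavernous pericytes through membranes. RNA was taken 72 hours into high glucose and 24 hours after PC-NVs by the study's methods, whereas the sample labels give 5 days of glucose. Each group is 1 library, so no difference was tested, the spread between cultures is unknown, and chance differences of 1 culture and effects of PC-NVs cannot be told apart. Pairs of levels below are given for HG+HBS first.

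Complement is a chain of blood and tissue proteins that tags cells and particles and calls in leukocytes. The classical route starts with C1q, whose proteases C1r and C1s cut C4 and C2, and the alternative route runs on factor B (Cfb) and cleaved C3. Both routes meet at C3, which is cut into C3b, the tag, and C3a, a peptide read by the receptor C3ar1. Regulators hold the chain back at the start (C1 inhibitor, Serping1) and on the cell surface (decay-accelerating factor, Cd55). The liver makes most complement of the blood, and vessel wall cells, fibroblasts and macrophages make their own.

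Cfb and C3 were higher in HG+PC-NVs by 9.55-fold and 6.85-fold, C1ra and Serping1 by 1.58-fold and 1.51-fold, and the other 5 genes lay within 1.34-fold of their HG+HBS level. In bulk RNA, more cells of a type, more RNA per cell and RNA brought in by the vesicles cannot be told apart. The paper assumed that PC-NVs carry and transfer its selected genes, and that was not tested here. A fold here is the ratio of FPKM + 1, where the FPKM of a symbol is the sum over its transcript rows of the deposited values converted from the log2 scale. Of the 9 genes, 2 were at least 2-fold higher in HG+PC-NVs, and 0 were at least 2-fold lower. Over the 12109 genes with 1 FPKM or more in at least 1 library, 2.52% were at least 2-fold higher and 0.867% at least 2-fold lower. At 1.5-fold, 4 of the 9 genes were higher and 0 lower, against 5.67% and 3.82% of all genes. The 4 include Serping1 at 1.51-fold, which was at 1.42-fold after quantile normalization and 1.47-fold after upper-quartile scaling, so that 3 passed there. Since the genes were picked with this contrast known, nothing is read from these shares. The median log2 difference was 0.42 over the 9 genes and -0.01 over the 12109 genes.

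**Figure D1:**
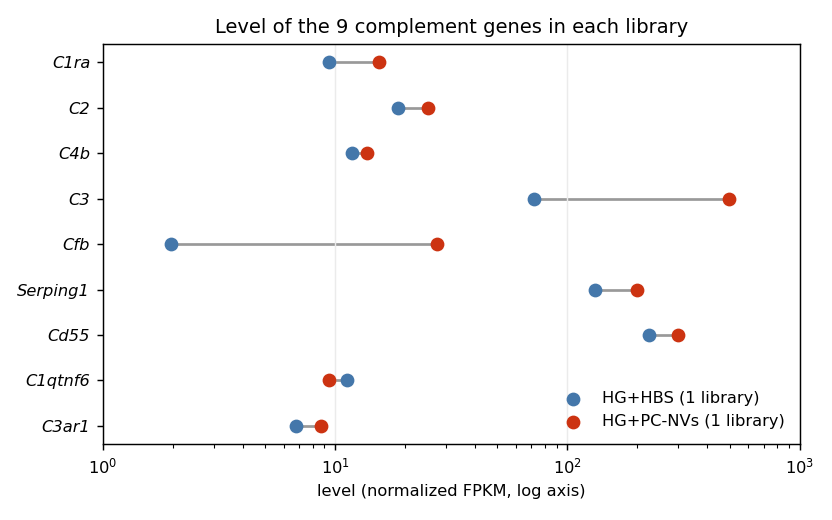
Level of each of the 9 complement genes, as normalized FPKM on a log axis, in the HG+HBS library (blue) and the HG+PC-NVs library (red), joined by a line; with 1 library per group there are no error bars. C3 and Cfb span the widest gaps, and C1qtnf6 is the gene whose red point lies to the left of the blue one.

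C3, the protein on which all routes converge, lies at 57203970 to 57228136 on chromosome 17 (GRCm38, reverse strand). C3 stood at 71.97 FPKM with HBS against 499 FPKM with PC-NVs, which is 6.19 and 8.96 as log2(FPKM + 1). By level it ranked 1099 among the 12109 genes with HBS and 168 with PC-NVs. The C3 difference ranked 30 among those of all 12109 genes. The C3 transcript of 5136 nt rested on about 4928 and 29780 fragments, and the FPKM ratio of 6.93 had a 95% Wilson interval of 6.72 to 7.14. Intervals of this kind cover counting error only.

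Factor B, the protease that joins C3b to form the convertase of the alternative route, is encoded by Cfb on the reverse strand of chromosome 17 from 34856374 to 34862518. Its level was 1.97 FPKM with HBS against 27.3 FPKM with PC-NVs. Its difference of 3.26 on the log2(FPKM + 1) scale ranked 15. Cfb was the least abundant of the 9 genes in HG+HBS, with about 72 fragments against 869 in HG+PC-NVs. Without the added 1 FPKM the ratio was 13.9, with a 95% Wilson interval of 10.9 to 17.6, so its size depends on how low values are treated. Most of the Cfb signal was in 1 of its 2 transcript rows, at 1.96 and 26.02 FPKM, while the other row went from 0.00101 to 1.31 FPKM. C3 transcripts outnumbered those of Cfb per length by 36.6 to 1 with HBS and by 18.2 to 1 with PC-NVs.

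The start region of C3 is shown because C3 had the largest FPKM difference of the 9 genes, with those of Cd55, the most abundant of them in HG+HBS, and C1qtnf6, the gene that was lower in HG+PC-NVs, for comparison. Each is the 250 bases before the RefSeq start on GRCm38.p6, written 5′ to 3′ on the gene's strand, with capitals marking matches to a C/EBP-type motif (TTNNGNAA) or an NF-kB-type motif (GGGANNNNCC) on either strand. C3 is at chr17:57228137-57228386, Cd55 at chr1:130462745-130462994 and C1qtnf6 at chr15:78529652-78529901, all on the reverse strand.
C3: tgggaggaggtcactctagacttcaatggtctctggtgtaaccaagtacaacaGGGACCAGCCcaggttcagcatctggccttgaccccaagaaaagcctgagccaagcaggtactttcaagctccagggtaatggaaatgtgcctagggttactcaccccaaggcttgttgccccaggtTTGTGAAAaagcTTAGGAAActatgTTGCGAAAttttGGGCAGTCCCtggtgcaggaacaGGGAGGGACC
Cd55: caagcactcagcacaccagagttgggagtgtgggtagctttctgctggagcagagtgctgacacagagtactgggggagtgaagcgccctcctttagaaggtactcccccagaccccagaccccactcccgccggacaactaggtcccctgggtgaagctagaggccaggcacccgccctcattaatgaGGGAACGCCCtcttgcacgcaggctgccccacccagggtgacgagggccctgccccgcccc
C1qtnf6: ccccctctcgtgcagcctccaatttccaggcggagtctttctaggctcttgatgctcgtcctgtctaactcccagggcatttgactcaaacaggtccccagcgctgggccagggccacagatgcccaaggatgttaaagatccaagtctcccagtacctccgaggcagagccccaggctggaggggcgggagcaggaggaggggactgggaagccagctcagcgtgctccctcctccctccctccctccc

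The C3 window held 3 C/EBP-type matches, which began 70, 58 and 45 bases before the start, and 3 NF-kB-type matches, which began 197, 33 and 10 bases before it. None of the matches shared bases. At least 1 C/EBP-type match was present in 36.8% of the 32851 RefSeq windows of the same length, and 3 or more in 2.61%. For the NF-kB-type motif these shares were 17.6% and 0.356%. The Cd55 window held 1 NF-kB-type match and the C1qtnf6 window neither motif. C1qtnf6 has 3 RefSeq transcripts and its GENCODE gene extends to 78531416, so that window lies inside the gene and may not precede every transcript. The C1ra window held 2 C/EBP-type matches and that of C3ar1 neither. The C1ra window, from 124512371 to 124512620, spans the GENCODE start of its gene at 124512405. A STAT-type motif (TTCNNNGAA, in 7.02% of windows) and an IRF-type motif (GAAANNGAAA, in 2.98%) had 0 matches in these 5 windows. A match says only that the letters are present. Windows were found for 5 of the 9 genes, and C2, C4b, Cfb and Serping1 had none in the table.

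Of the classical route, C1ra encodes the protease that activates C1s. C1ra, on the forward strand of chromosome 6 from 124512405 to 124523443, was at 9.40 and 15.4 FPKM. The C1ra ratio was 1.64 (95% Wilson interval 1.44 to 1.87, about 374 and 535 fragments). C2, the protease subunit of the classical convertase, was at 18.7 and 25.2 FPKM, a ratio of 1.34 (1.21 to 1.49). C4b, which supplies the other subunit, was at 11.9 and 13.8 FPKM, a ratio of 1.16 (1.06 to 1.28). All 3 were higher in HG+PC-NVs by more than the counting error, yet each by far less than Cfb. C2 and Cfb are related proteases that serve the same step in different routes. Per length, the level of Cfb was 0.105 times that of C2 with HBS and 1.09 times that of C2 with PC-NVs.

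The regulators were the most abundant of the 9 genes in HG+HBS. Cd55, which speeds the decay of both C3 convertases, was at 225 and 300.2 FPKM. The Cd55 ratio was 1.34 (95% Wilson interval 1.30 to 1.38). Serping1, which encodes C1 inhibitor, the inactivator of C1r and C1s, was at 132 and 199.96 FPKM, a ratio of 1.51 (1.44 to 1.59). Per length, the Cd55 level was 3.12 times that of C3 with HBS and 0.602 times that of C3 with PC-NVs, so C3 ranked below Cd55 in one library and above it in the other. The ratio of Serping1 to C1ra was 14.06 and 12.96. Quantile normalization of the libraries brought the fold of Cd55 to 1.16 and that of Serping1 to 1.42.

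C1qtnf6, a C1q/TNF-related protein described as an inhibitor of the alternative route, was at 11.3 and 9.46 FPKM. It was the 1 gene of the 9 with the lower level in HG+PC-NVs, at a ratio of 0.840 (95% Wilson interval 0.713 to 0.986, about 346 and 253 fragments). Its 3 transcript rows did not move together. The main row went from 9.91 to 7.78 FPKM, another from 1.35 to 0.993 FPKM, and the remaining row from 0.000293 to 0.684 FPKM. C3ar1, the receptor of C3a, was at 6.77 and 8.73 FPKM, a ratio of 1.29 (1.12 to 1.48). C3 exceeded its receptor per length 10.6-fold with HBS and 57.2-fold with PC-NVs.

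**Figure D2:**
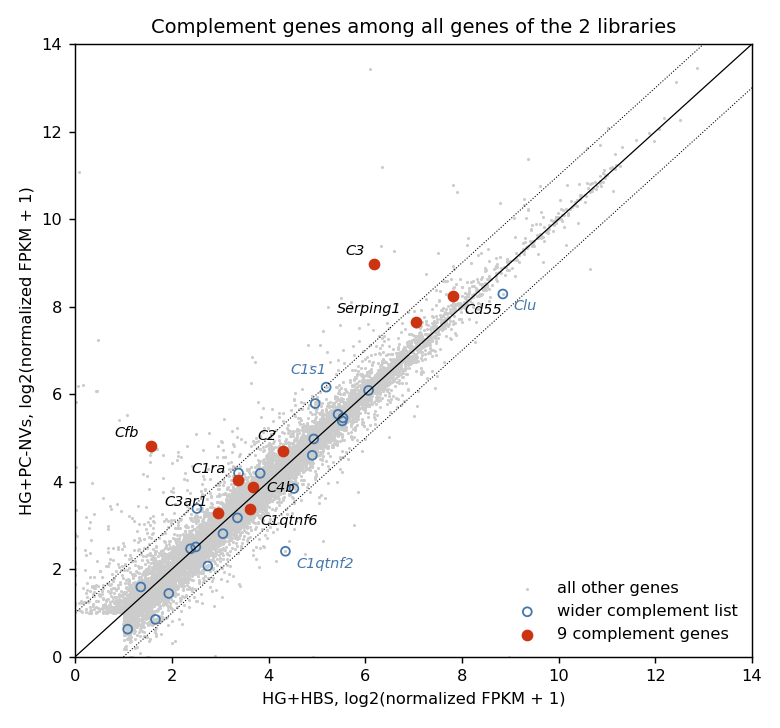
Each gene's log2(normalized FPKM + 1) in HG+HBS (x axis) and HG+PC-NVs (y axis), for genes with 1 FPKM or more in at least 1 library. Red points are the 9 genes, and open blue circles the other genes of the wider list, C1q/TNF-related genes such as C1qtnf2 included. The solid line marks equality and the dotted lines a 2-fold difference. C3 and Cfb lie above the upper dotted line, and C1qtnf2 below the lower one.

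A wider list of 65 symbols was read by role, the 9 genes and the C1q/TNF-related family included. Of these symbols, 32 reached 1 FPKM in at least 1 library. Of these 32, 2 were at least 2-fold higher in HG+PC-NVs, C3 and Cfb. The 1 gene at least 2-fold lower was C1qtnf2, of the C1q/TNF-related family. Over all genes the shares were 2.52% and 0.867%. Without the 9 genes, 23 remained, with a median log2 difference of -0.08, 11 higher and 12 lower by any amount, where 5846 of the 12109 genes were higher and 6263 lower. At 1.5-fold, 4 of these 23 were higher and 4 lower, beside the 5.67% and 3.82% of all genes given above. With the C1q/TNF-related family left out instead, 26 remained, C3 and Cfb included. Their median log2 difference was 0.15, with 18 higher and 8 lower by any amount. Of these 26, 2 were at least 2-fold higher and 0 lower, and at 1.5-fold 7 were higher and 1 lower, beside the same all-gene shares. Since C3 and Cfb were picked with this contrast known, nothing is read from these counts.

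C1q itself, the recognition unit of the classical route, was level between the libraries. C1qa was at 45.0 and 40.9 FPKM, C1qb at 42.4 and 45.5, and C1qc at 45.6 and 42.9. C1s1, the protease that C1r activates, was at 35.6 and 70.5 FPKM, 1.96-fold higher in HG+PC-NVs, just under the 2-fold limit. Masp1, a protease of the lectin route, was at 66.1 and 67.0 FPKM, and the other 7 lectin genes stayed under 1 FPKM. The 7 genes of the terminal pathway, which builds the membrane attack complex, also stayed under 1 FPKM, the highest at 0.804.

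Among the other alternative-route genes, properdin (Cfp), which stabilizes the convertase, was at 13.2 and 17.3 FPKM. Factor D (Cfd), the protease that cuts factor B, was at 1.12 and 0.549 FPKM. Thbd, thrombomodulin, was at 30.2 and 54.1 FPKM, 1.77-fold higher. Cr1l, the rodent membrane regulator known as Crry, was at 29.6 and 30.5 FPKM. Clusterin (Clu), an inhibitor of the terminal complex, went the other way, from 459 to 312 FPKM.

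The C1q/TNF-related family, to which C1qtnf6 belongs, had 6 genes at 1 FPKM or more, of which 5 were lower in HG+PC-NVs by any amount, as were 6263 of all 12109 genes. C1qtnf2 was at 19.4 and 4.32 FPKM, C1qtnf1 at 22.0 and 13.4, C1qtnf5 at 28.9 and 23.3, and C1qtnf3 at 5.69 and 3.21. C1qtnf7 was the exception, at 4.73 and 9.46 FPKM. The family's median log2 difference was -0.49. Of the receptor list, 6 of 9 genes reached 1 FPKM, between -0.81 for Itgax and 0.32 for C3ar1 on the log2 scale.

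**Figure D3:**
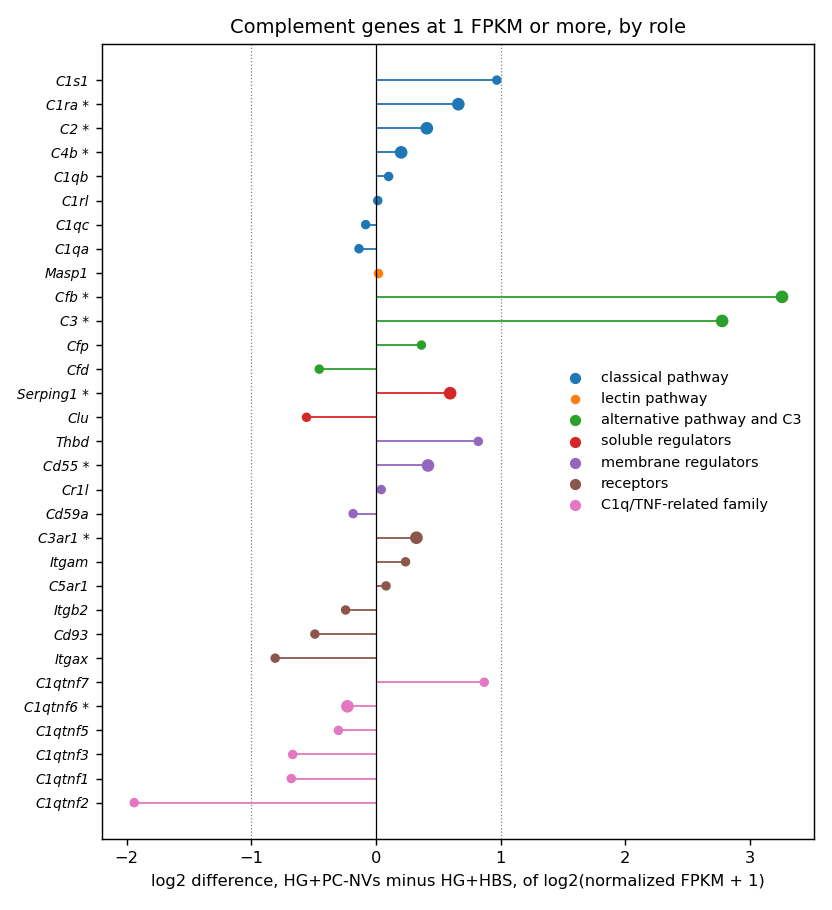
Log2 difference (HG+PC-NVs minus HG+HBS) of the genes of the wider list, C1q/TNF-related family included, with 1 FPKM or more in at least 1 library (1 of the 32 is not shown). Colours give the role, larger points and asterisks the 9 genes, and dotted lines a 2-fold difference. Only Cfb, C3 and C1qtnf2 pass a dotted line, and no terminal pathway gene is shown because all 7 were under 1 FPKM.

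The make-up of the complement transcripts shifted with C3. Over the 57 listed symbols outside the C1q/TNF family, C3 took 5.58% of the summed FPKM with HBS and 27.4% with PC-NVs. The share of Clu went from 35.6% to 17.1%, while that of Cd55 was 17.4% and 16.5% and that of Serping1 10.2% and 11.0%. Together the 9 genes summed to 489 and 1099 FPKM, and without C3 to 417 and 600.05 FPKM. They made up 0.0937% of all summed FPKM with HBS and 0.189% with PC-NVs.

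**Figure D4:**
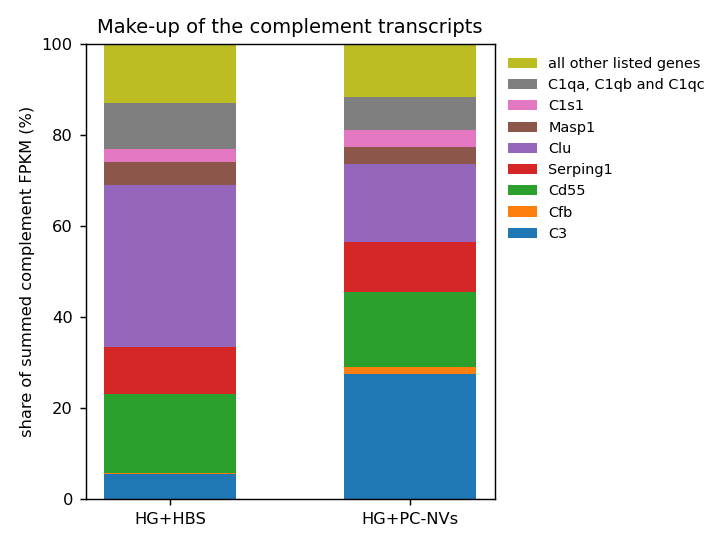
Stacked bars give each gene's percent of the summed normalized FPKM of 57 complement symbols (the C1q/TNF family left out) in each library. C3 makes up 5.58% of the HG+HBS bar and 27.4% of the HG+PC-NVs bar, and Clu 35.6% and 17.1%.

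Of the 9 genes, 4 lie on chromosome 17. C4b, Cfb and C2 sit together in the class III region of the major histocompatibility complex, C4b from 34728380 to 34743882 and C2 from 34862604 to 34898265, all on the reverse strand, with 85 bases between Cfb and C2. C3 lies 22305704 bases beyond C2. Within 150 kb of Cfb, 17 genes reached 1 FPKM, and of the 14 outside the 9 genes 0 passed 2-fold. Their log2 differences ran from -0.87 (Tnxb) to 0.46 (Lsm2). Over all genes 2.52% were at least 2-fold higher and 0.867% at least 2-fold lower, so nothing is read from 0 of 14. Nelfe, which ends 1 base from Cfb on the opposite strand, was at 27.8 and 29.8 FPKM, and Skiv2l beyond it at 23.5 and 22.0. On either side of C3, Gpr108 was at 39.6 and 43.3 FPKM, Trip10 at 28.6 and 27.0, and Tnfsf14 and Cd70 were under 1 FPKM. C1ra lies on chromosome 6 between C1rl, at 4.64 and 4.70 FPKM, and C1s1. Over the 32 nearest neighbours of the 9 genes, 18 reached 1 FPKM. Beside the 2.52% of all genes, 2 of these 18 were at least 2-fold higher in HG+PC-NVs. These were Rac2, a small GTPase of blood cells near C1qtnf6, at 1.45 and 9.88 FPKM, and Clec4a1, a C-type lectin near C3ar1, at 0.659 and 9.92 FPKM. The other 16 lay between -0.87 and 0.97 on the log2 scale, among them Ehmt2 beside C2 (49.8 and 48.2 FPKM), Atf6b near C4b (25.9 and 31.8), Ube2l6 near Serping1 (77.9 and 99.3) and Necap1 and Slc2a3 near C3ar1 (17.6 and 21.1, 14.8 and 8.79).

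**Figure D5:**
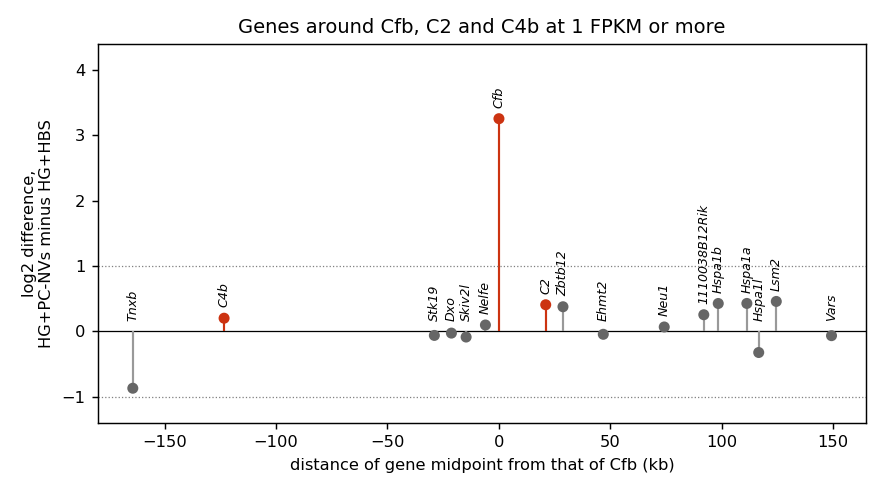
Log2 difference (HG+PC-NVs minus HG+HBS) of each gene with 1 FPKM or more in at least 1 library within 150 kb of Cfb, against the distance of its midpoint from that of Cfb in kb; red marks Cfb, C2 and C4b, and dotted lines a 2-fold difference. Cfb, at 3.26, is the single gene past a dotted line, and C2 beside it is at 0.41.

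Reads of some of these genes could have been shared with others. A GENCODE gene model that spans C2 and Cfb, Gm20547, holds 53.2% of the 100-base windows of the C2 transcript and 78.6% of those of Cfb, and has no row of its own in the files. C4a holds 16.5% of the windows of C4b and was listed at 0.0530 and 0.0306 FPKM. C1rb holds 34.5% of those of C1ra and was listed at 0 in both libraries. Cd55b holds 6.86% of those of Cd55 and was listed at 0.242 and 0.0705 FPKM. C2 also overlaps Zbtb12 on the opposite strand, at 2.99 and 4.19 FPKM. Antisense genes overlap Cd55 (Gm16083) and C1qtnf6 (Gm49490), and neither was listed. Windows were compared in transcript orientation only, so sharing across strands was not tested. In that orientation, no 100-base window of C3, Serping1, C1qtnf6 or C3ar1 was found in transcripts of another gene. The levels of C2, Cfb, C4b and C1ra are uncertain to the extent of their shared windows.

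The 5 genes nearest to C3 in level, by distance in the plane of the log2(FPKM + 1) values of the 2 libraries, were Slpi (0.44 away), Ccl7 (0.50), Mmp13 (0.96), Ier3 (0.98) and Fam162a (1.01). Slpi, a protease inhibitor, was at 79.1 and 667 FPKM. Mmp13, a collagenase, was at 60.1 and 263 FPKM, and Ier3, an immediate early response gene, at 51.5 and 274. Ccl7, a chemokine for monocytes, was at 95.2 and 618 FPKM, and Fam162a, a gene of the hypoxia response, at 100.3 and 267. The likeness rests on 2 values per gene.

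Markers of cell types were read beside these values. Of 12 endothelial markers, 5 reached 1 FPKM in at least 1 library. Their sum over the list was 48.0 and 39.1 FPKM, with Eng at 29.0 and 21.4, Egfl7 at 9.48 and 8.57, Cdh5 at 5.05 and 5.73, Pecam1 at 1.05 and 0.938, Flt1 at 1.19 and 0.835, Kdr at 0.518 and 0.438 and Vwf at 0.158 and 0.128. Kdr, Vwf and the other 5 stayed under 1 FPKM in both libraries, the highest at 0.707. All 8 fibroblast markers were above 1 FPKM in both, with a sum of 2065 and 2362 FPKM, Dcn at 623 and 1283, Thy1 at 549 and 412, Col1a2 at 312 and 198, Col3a1 at 163 and 128, Col1a1 at 161 and 139, Pdgfra at 149 and 129, Fap at 62.2 and 37.8 and Lum at 45.4 and 36.3. Dcn was the 1 fibroblast marker at least 2-fold higher, and the higher sum came from it alone. The other 7 were lower by any amount, as were 6263 of all 12109 genes, and the list median log2 difference was -0.33. Of 11 pericyte and smooth muscle markers, 9 reached 1 FPKM, with a sum of 118 and 93.0 FPKM and 2 at least 2-fold higher, Rgs5 (1.69 and 7.23) and Kcnj8 (7.98 and 20.4), and 2 lower, Acta2 (27.6 and 8.02) and Tagln (17.3 and 7.34). Over all genes the shares past 2-fold were 2.52% higher and 0.867% lower. Pdgfrb was at 38.4 and 33.7 FPKM and Cspg4 at 20.4 and 12.2.

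All 10 macrophage markers reached 1 FPKM, with a sum of 339 and 566 FPKM. Most of the rise in that sum was Cd14. By any amount 5 of the 10 were higher and 5 lower, as were 5846 and 6263 of all 12109 genes, and the list median log2 difference was -0.06. Of the 10 markers, 3 were at least 2-fold higher in HG+PC-NVs, Cd14 (36.6 and 252 FPKM), Adgre1 (7.44 and 42.5) and Aif1 (2.93 and 12.9), and Mrc1 was lower (3.76 and 1.27), with the same all-gene shares of 2.52% and 0.867%. Lyz2 was at 212 and 193 FPKM, Cd68 at 36.2 and 26.3, Tyrobp at 29.4 and 29.5 and Csf1r at 8.39 and 6.20. Of 8 hepatocyte markers, 2 reached 1 FPKM, with Alb at 0.148 and 0.561, and the list summed to 4.22 and 7.20 FPKM. In both libraries the endothelial list summed below the fibroblast list, the macrophage list, and the pericyte and smooth muscle list. Sums over different markers do not measure shares of cells. In bulk RNA the levels of C3 and Cfb cannot be assigned to endothelial cells or to any other of these cell types. The part of any of these cell types in the C3 and Cfb differences was not tested.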

How the data were processed

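RNA of MCECs was sequenced as 1 library per group, HG+HBS and HG+PC-NVs. The authors prepared stranded poly(A) libraries, trimmed reads, mapped them with TopHat (mm10 in the submitters' processing notes), computed read counts with BEDTools and FPKM with Cufflinks, and normalized in R with edgeR, by their methods with quantile normalization. The deposited columns did not share their quantiles, since sorted values were over 0.05 apart in 2318 rows and the summed FPKM was 521666 with HBS and 580717 with PC-NVs. The annotation and tool versions are not given in the sources used here. The deposited values were read as log2(normalized FPKM + 1), from their range up to 13.99, for 33299 transcript rows. Whether counting used strand is not stated.

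Here values were converted back to FPKM and summed over the rows of each of 23183 symbols. Differences are of log2(FPKM + 1), without further scaling. Counts use genes with 1 FPKM or more in at least 1 library and a fold of 2. No p-value was computed. The worth of 1 fragment (FPKM times kb), 0.075 with HBS and 0.086 with PC-NVs, was the most frequent low value among 2189 genes that have 1 transcript longer than 1500 nt, which places the libraries near 13300000 and 11600000 fragments. From it came approximate fragments and 95% Wilson intervals. A floor of 3 fragments is 0.113 FPKM with HBS and 0.129 with PC-NVs for a transcript of 2 kb.

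Coordinates and transcripts are from GENCODE M21 (GRCm38), in which 95.5% of symbols were found, and start regions from RefSeq. The text names all 9 genes, listed complement genes past 2-fold or at 10 FPKM (1 is counted but not reported here), the 5 genes nearest to C3, neighbours (nearest 2 on each side, some by counts), and markers at 10 FPKM or past 2-fold. Other genes under those limits (Cdh5, Egfl7, Pecam1, Flt1, Kdr, Vwf, Csf1r, Alb, Cfd, C1qtnf3, C1qtnf7, Itgax, C4a, C1rb and Cd55b), and the motifs, were named after their values were seen. The genes and lists were chosen with earlier results of these data known. Scripts were tested on simulated data. Computation used pandas 2.3.3 and numpy 2.4.6 under Python 3.11.15, with intervals from scipy 1.17.1 and figures from matplotlib 3.10.9.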

Additional observations from a re-analysis of the deposited data

How the results depend on the processing

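The direction of all 9 genes held under quantile normalization, median centring, upper-quartile scaling, a pseudocount of 0.1 FPKM and the highest row of each symbol. For comparison, the widths of each gene's Wilson interval on the log2 scale were placed around its log2 difference as deposited. Of these 45 values, 41 lay within that shifted interval and 4 did not. Part of the 41 was fixed in advance. A gene with 1 transcript row keeps its value under the highest-row setting, and median centring subtracted only the median of -0.008 from each gene. Quantile normalization moved C3 to 2.61, Serping1 to 0.51 and Cd55 to 0.22 on the log2 scale, and the pseudocount of 0.1 moved Cfb to 3.73. That Cfb value is a fold of 13.3, which lies inside the unshifted interval of its ratio, 10.9 to 17.6. These scalings moved the median log2 difference of all genes no further than -0.04. The count of the 9 genes at least 2-fold higher was 2 under each of these and both filters, 2 at 4-fold and 4 at 1.5-fold. The last count was 3 after quantile normalization or upper-quartile scaling, without Serping1. In the wider list, 8 genes were higher at 1.5-fold, and those lower numbered 4 at 1.5-fold, 0 at 4-fold, 2 with the pseudocount of 0.1 (C1qtnf2 and Itgax) and 3 with the highest row (C1qtnf1, C1qtnf2 and Cfd). Over all genes, 687 were higher and 462 lower at 1.5-fold, and 75 and 7 at 4-fold. With the pseudocount of 0.1, 413 were higher and 253 lower, against 305 higher and 105 lower as reported. The cause of these shifts was not tested, beyond the limits themselves being wider or narrower. No paired analysis was possible because each group is 1 library, and no replicate could be left out. A gene under 3 fragments cannot be told from one that is absent.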
